A study of Mus musculus with 15 samples.

Results

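The CDR3 is the hypervariable loop of a T cell receptor chain, and long loops here are the CDR3 peptides of the alpha chain with 15 residues or more, written without the conserved residues at both ends. They were taken by length alone from lists of CDR3 peptides and their read counts in 15 libraries of mouse CD8+ T cells, and numbered 4058 of 92219 distinct CDR3s (4.40%). The other 88161 are called shorter loops. The lists hold peptides only, so cell identity could not be checked against marker genes.

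All mice were C57BL/6 males that carried a fixed transgenic TCR beta chain (genotype TCRbtg), so that the alpha chain was the part of the receptor that varied. Naive cells (CD8b+ CD4neg CD44lo CD122neg) and memory-phenotype cells (MP, CD8b+ CD4neg CD44hi CD122+) were sorted from spleen and lymph nodes, pooled per sample, of mice aged 9 weeks, 5 libraries each. Tumour cells (CD8b+ CD4neg, with no CD44 or CD122 gate) came from digested prostate tumours of 5 males aged 27 weeks that were TCRbtg TRAMP+/-, a transgene in which a prostate-specific promoter drives viral T antigens. Tissue, age, transgene, digestion and sorting gate therefore differ together between Tumour and the other groups and cannot be told apart. The libraries held 547665 to 943699 reads and list a CDR3 from 2 reads upward, and MP 1 and MP 5 stand apart from MP 2 to MP 4 by several times more distinct CDR3s.

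As background, an alpha chain is made by joining a V segment, which gives the first residues of the loop, to one of many J segments (TRAJ), which give the last ones. Bases are trimmed and added at the join, so a loop is long when little of either segment was removed, when the J segment is itself long, or when many bases were added. The delta chain genes lie inside the alpha locus, and their diversity segments (TRDD) can be joined to V segments of the same region. TRAJ names below were given by matching the last residues to segment ends written from general knowledge, and 12 members matched none.

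Several joining ends recur among the members and comparisons described below. For some of those segments the commonest last 9 residues of the members assigned to them are shown here. Not all segments called in the comparisons are among them. Whole members are named by their first 3 and last 7 residues and their length.

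TRAJ52: TGANTGKLT

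TRAJ32: YGSSGNKLI

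TRAJ42: SGGSNAKLT

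TRAJ53: SGGSNYKLT

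TRAJ50: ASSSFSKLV

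TRAJ39: NNNAGAKLT

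TRAJ2: TGGLSGKLT

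TRAJ56: ATGGNNKLT

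These ends were found whole more often in long than in shorter loops of the same segment. TGANTGKLT stood at the end of 508 of 561 TRAJ52 members (90.6%) and of 48.7% of shorter TRAJ52 loops. YGSSGNKLI closed 98.2% of 449 TRAJ32 members and 64.8% of shorter ones, and SGGSNYKLT closed 95.4% of 280 TRAJ53 members against 68.1%. For TRAJ39, NNNAGAKLT closed 65.9% of 88 members and 20.8% of shorter loops. A loop was taken as a member for its length, to which an untrimmed end adds, so this is a description.

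Most members sat just inside the limit. There were 3060 of 15 residues (75.4%), 580 of 16, 199 of 17, 78 of 18 and 100 of 20 or more, with the longest at 39 residues. Just outside the limit, 8904 CDR3s had 14 residues. In Naive libraries loops of 14 residues took 3.51 ± 0.266% of reads, against 1.74 ± 0.163% for MP and 1.47 ± 0.588% for Tumour. For loops of 15 residues these shares were 0.601 ± 0.0400%, 0.332 ± 0.0349% and 1.02 ± 1.40% (SD, n = 5).

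Long loops took a smaller share of reads in MP than in Naive libraries when all listed CDR3s were counted, and their share varied widely between tumours. In Naive libraries 1 to 5 they took 0.696, 0.687, 0.673, 0.735 and 0.777% of reads. The MP libraries gave 0.341, 0.395, 0.416, 0.447 and 0.536%, so that all 5 lay below all 5 Naive libraries. Tumour libraries gave 3.62, 0.380, 1.02, 0.349 and 0.808%, which overlapped both other groups. The means were 0.714 ± 0.0423% in Naive, 0.427 ± 0.0722% in MP and 1.23 ± 1.36% in Tumour (SD, n = 5). MP was lower than Naive by 0.287 percentage points (exact two-sided permutation test, p = 0.00794, the smallest that 5 against 5 libraries allow, adjusted p = 0.0238 over 3 comparisons). Tumour differed from MP by 0.808 points (exact permutation p = 0.151, adjusted p = 0.226) and from Naive by 0.521 points (exact permutation p = 0.667). Without Tumour 1 these differences were 0.213 and -0.0741 points (exact permutation, adjusted p = 0.452 and 0.683).

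This difference was not seen among CDR3s of 10 reads or more. Members of fewer than 10 reads held 59.7 ± 15.6% of the long-loop reads of Naive libraries, 10.2 ± 11.8% of those of MP and 1.73 ± 1.56% of those of Tumour libraries. With CDR3s of fewer than 10 reads left out of each library, the share of long loops was 0.324 ± 0.106% in Naive and 0.390 ± 0.0677% in MP, and the difference turned to 0.0659 points (exact permutation adjusted p = 0.286). Without MP 1 and MP 5 the difference was -0.295 points, with an adjusted exact permutation p of 0.107. The unadjusted p of 0.0357 was the smallest that the libraries left allow, so this does not show a weaker difference.

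**Figure D1:**
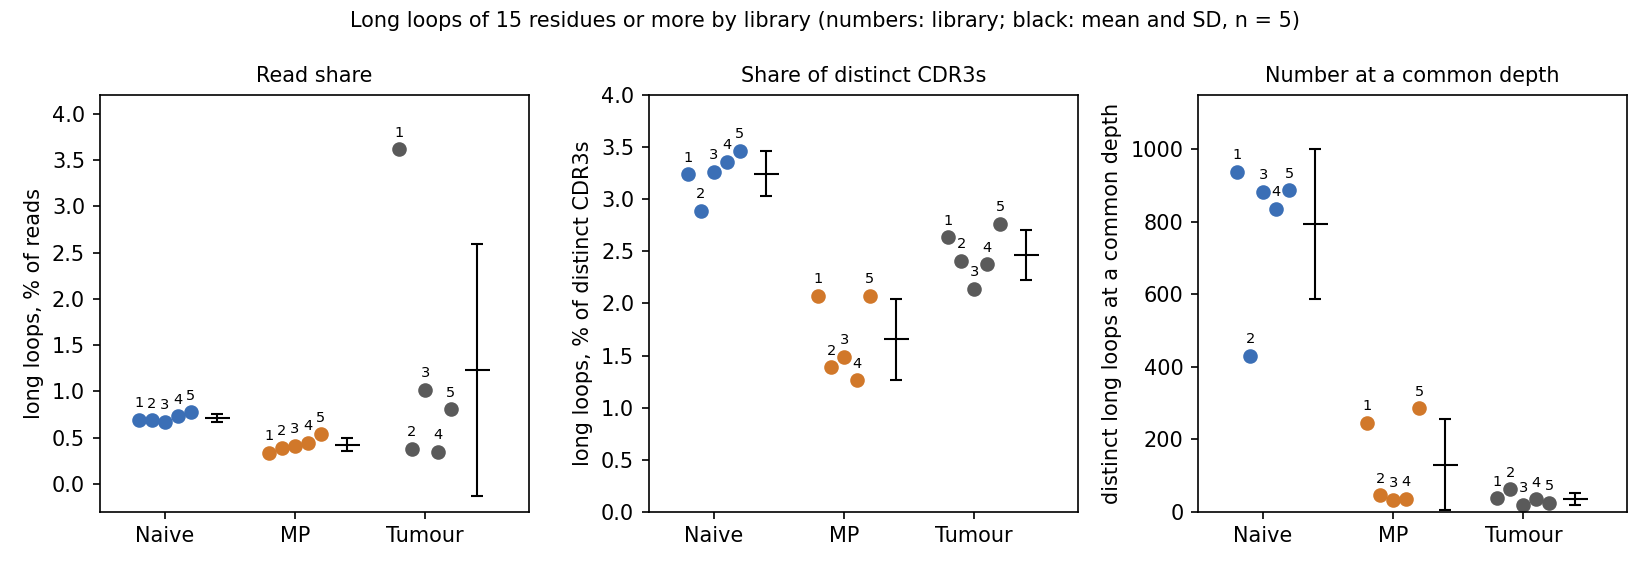
The 3 panels plot, for each library (point, with its number), long loops as a percent of reads, as a percent of distinct CDR3s, and as a number at 547665 reads; black marks give the group mean and SD of 5 libraries. Naive libraries lie above MP libraries in each panel, and Tumour 1 stands alone in read share at 3.62%.

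Among distinct CDR3s, each counted once, the 3 groups did not overlap. Long loops were 3.24, 2.89, 3.27, 3.36 and 3.46% of the distinct CDR3s of Naive libraries 1 to 5. They were 2.07, 1.39, 1.49, 1.26 and 2.07% in MP libraries 1 to 5, and 2.64, 2.41, 2.14, 2.37 and 2.77% in Tumour libraries 1 to 5. Tumour thus lay between the other groups, above MP by 0.810 points and below Naive by 0.778 points, and MP lay 1.59 points below Naive (exact two-sided permutation, adjusted p = 0.00794 for each). This order held for the limit of 15 residues. At 14 residues or more Tumour lay below MP (a difference of -0.871 points, exact permutation, adjusted p = 0.421), and at 16 or more Tumour lay above Naive by 0.302 points (adjusted p = 0.159). With CDR3s of fewer than 10 reads left out the shares were 1.24 ± 0.424% in Naive, 1.38 ± 0.359% in MP and 1.96 ± 0.459% in Tumour, and no pair passed the exact permutation test (adjusted p = 0.0833 for Tumour against each other group and 0.571 for MP against Naive).

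Some members of tumour libraries lay close to an abundant CDR3. In a tumour library 12.5 to 75.0% of the distinct members differed by 1 substitution from a CDR3 of the same library that had 100 times their reads or more. In MP libraries this held for 0.389 to 10.6%, and in Naive ones for 0 to 0.104%. The part of reading errors in this was not tested. With these folded into the abundant CDR3, Tumour remained above MP by 0.729 points (exact permutation, adjusted p = 0.0476).

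At a common depth of 547665 reads, Naive libraries held 795 ± 207 distinct long loops, MP libraries 130 ± 125 and Tumour libraries 36.2 ± 16.7 (SD, n = 5). In a library scaled down to that depth a loop counted from 1 read, while the lists start at 2 reads. The smallest library, Naive 2, was not scaled down, so the detection limit was not the same in all libraries. MP and Tumour were each below Naive (exact permutation, adjusted p = 0.0119), and Tumour and MP were not told apart by the test (p = 0.190). The difference of -665 between MP and Naive became -37.8 with CDR3s of fewer than 10 reads left out (exact permutation, adjusted p = 0.103), and the call was lost. Without MP 1 and MP 5 it was larger, -756, and did not pass (exact permutation, adjusted p = 0.0536). There the unadjusted p of 0.0357 was the smallest that the libraries left allow, so this does not show a weaker difference. MP 1 and MP 5 held 246 and 285, and MP 2 to MP 4 held 46.6, 32.9 and 37.0, within the range of 19.9 to 63.0 in tumours. Without MP 1 and MP 5, Tumour differed from MP by -2.62 (exact permutation, adjusted p = 0.857). The numbers of cells sorted are not in the labels.

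Long loops were shared between libraries less often than shorter loops. Of the members, 3613 (89.0%) were listed in 1 library of 15, against 66.8% of shorter loops. In each library the share of its distinct long loops that another library of its group also listed was compared with the same share of its shorter loops. Naive libraries gave 26.1 ± 1.46% for long and 60.4 ± 4.23% for shorter loops. MP libraries gave 19.9 ± 7.14% and 52.9 ± 13.6%, and Tumour libraries 1.07 ± 1.46% and 32.4 ± 4.63%. The long-loop share was lower in 15 of 15 libraries, with a mean difference of -32.9 points (exact two-sided sign-flip permutation over libraries, p = 6.1e-05, the smallest that 15 libraries can give). Libraries of a group share their lists, so these 15 differences are not fully independent.

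The median member had fewer reads than the median shorter loop in 14 of 15 libraries. The medians were 3 to 6 against 4 to 9 reads in Naive, 4 to 53 against 7 to 38 in MP and 4 to 17 against 7 to 21 in Tumour libraries, and in MP 3 the order was the other way, with 53 against 38 reads. Among CDR3s of at least 10 reads the long-loop share was lower in 15 of 15 libraries, with a mean difference of -28.3 points (exact sign-flip permutation, p = 6.1e-05). By reads, members that another library of the group listed held 43.4 ± 3.72% of long-loop reads in Naive, 35.6 ± 13.4% for MP and 0.485 ± 0.968% for Tumour, against 92.1, 88.0 and 65.5% for shorter loops.

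**Figure D2:**
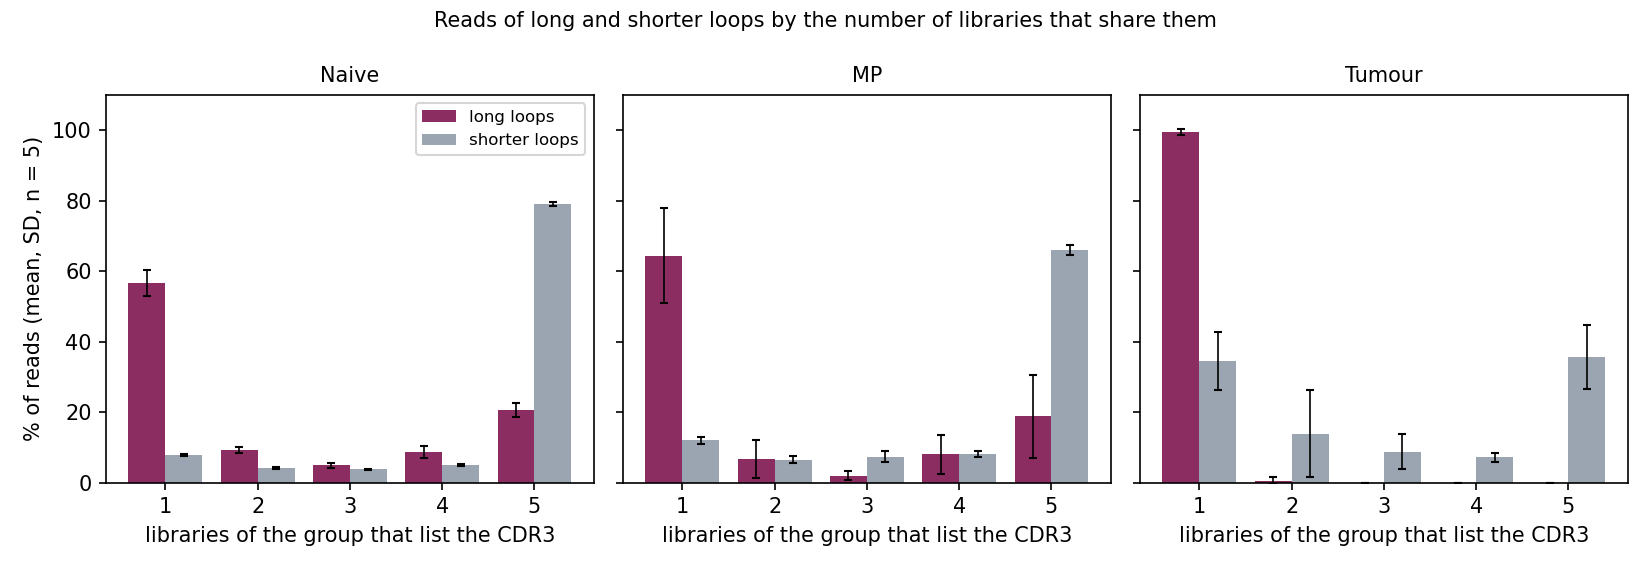
Bars give the mean percent of long-loop reads (purple) and of shorter-loop reads (grey) that fell on CDR3s listed in 1, 2, 3, 4 or 5 libraries of the group, with the SD over 5 libraries. CDR3s listed in all 5 libraries took 79.2% of shorter-loop reads but 20.6% of long-loop reads in Naive, and no long-loop read in Tumour.

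Tumours reused almost none of their long loops. Reuse depends on how many loops the other libraries of a group list, and list size was not matched between groups. Tumour libraries listed 20 to 64 members, MP libraries 33 to 289 and Naive libraries 431 to 957. Reuse was lower in Tumour than in MP (a difference of -18.9 points) and than in Naive (-25.0 points; exact permutation, adjusted p = 0.0119 each), and MP differed from Naive by -6.13 points (exact permutation p = 0.143). Without MP 1 the last difference was -11.0 points (exact permutation, adjusted p = 0.0159), and without MP 1 and MP 5 it was -11.6 points (adjusted p = 0.0357). With CDR3s of fewer than 10 reads left out it was -29.3 points (exact permutation, adjusted p = 0.0238). Of 185 tumour members, 1 was listed in more than 1 tumour: a 19-residue loop that starts with AMR and ends with YNQGKLI, with 59 reads in Tumour 1 and 63 in Tumour 4. The Morisita-Horn index, which is 1 for equal and 0 for disjoint read shares, averaged 0.638 for pairs of Naive libraries over long loops (0.973 over shorter loops), 0.301 for MP (0.916) and 1.03e-05 for Tumour (0.221). Between groups it was 0.00858 for long and 0.0579 for shorter loops of Naive and MP libraries, and 0.00101 and 0.00236 for Naive and Tumour. For MP and Tumour it was higher for long loops, 0.0558 (SD 0.132) against 0.00712, with 0.521 in the highest of 25 pairs. The leading MP member, described below, had 837 reads in Tumour 4 and was listed in no other tumour. Its part in this higher mean was not tested.

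Few members crossed groups. Naive and MP shared 63 members, which is 1.88% of the 3344 Naive and 10.4% of the 605 MP members. For shorter loops those shares were 15.2% and 43.2%. MP and Tumour shared 9 (1.49% and 4.86%), Naive and Tumour 8 (0.239% and 4.32%), and 4 members were listed in all 3 groups.

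Long loops listed in every Naive library were of a few kinds. In Naive, 38 of 3344 members were listed in all 5 libraries and took 20.6 ± 2.10% of long-loop reads. Of these 38, 36 had 15 residues, 25 started with AAS, 14 had the TRAJ52 end and 12 the TRAJ53 end. Among all Naive members 36.3% started with AAS, 15.6% had the TRAJ52 end and 7.51% the TRAJ53 end. In MP, 2 of 605 members were listed in all 5 libraries, and in Tumour none of 185.

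The members named next were chosen for their level in Naive or in MP. Each one tested passed the count filter of the test through its own group alone, whether or not the other group listed it. Its p therefore describes that choice and supports nothing further. The most abundant recurrent Naive member was a 15-residue loop that starts with AMR and ends with GGNNKLT (TRAJ56). It had 223, 57, 138, 222 and 196 reads in Naive libraries 1 to 5, a mean share of 0.0274 ± 0.0111% of reads. It had 2 reads each in MP 1 and MP 5 and was not listed in MP 2 to MP 4 or in any tumour. Every Naive library lay above every MP library (edgeR log2 fold change MP over Naive -7.76, SE 1.27, adjusted p = 0.000755). Over pooled libraries its share was 242 times that in MP, with an exact 95% interval of 94.2 to 891 for counting error only, since MP held 4 reads. It was at least 70.3-fold above Tumour, where the floor is 3 reads per library.

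The next Naive members were AAS loops with the TRAJ52 end ANTGKLT. The second in rank, which starts AASAG, had 143, 56, 100, 141 and 173 reads in Naive libraries, 8 in MP 5 and none elsewhere. Its pooled share was 88.8 times that in MP (exact 95% counting interval 44.8 to 207, edgeR log2 fold change -6.32, SE 1.61, adjusted p = 0.00801). The third, AASAE, had 44, 93, 38, 30 and 78 reads and was listed in no MP or Tumour library, at least 21.7-fold above MP and at least 24.4-fold above Tumour (edgeR adjusted p = 0.000694 and 5.55e-05).

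The other 5 Naive members of the highest mean share were likewise listed in all 5 Naive libraries and in no MP or Tumour library. They were an AMR loop ending in SSGNKLI (TRAJ32; 13 to 67 reads), an AASGG and a pair of AASAK loops ending in ANTGKLT (TRAJ52; 2 to 60 reads), and an AASAG loop ending in GGSAKLI (TRAJ57; 18 to 41 reads). All had 15 residues, and each was at least 11.4-fold above MP and at least 12.8-fold above Tumour.

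The leading MP member was a 15-residue loop that starts with AAE and ends with SSFSKLV (TRAJ50). It had 324, 402, 865, 336 and 111 reads in MP libraries 1 to 5 (0.0599 ± 0.0426%). In Naive libraries it had 8, 4, 12, 0 and 2 reads, so that the groups did not overlap, and in tumours it had 837 reads in Tumour 4 and none in the other 4. Its mean share in MP was 70.1 times that in Naive (edgeR log2 fold change 6.10, SE 1.18, adjusted p = 0.00159). The Tumour mean did not differ from MP by the test (edgeR log2 fold change -1.55, SE 2.35, adjusted p = 0.563). It was called lower in Tumour than in MP when Tumour 4 was left out.

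The second MP member, an AVS loop of 15 residues with the TRAJ39 end NAGAKLT, was the other one listed in all 5 MP libraries. It had 108, 79, 201, 110 and 118 reads there (0.0181 ± 0.00743%) and was listed in no Naive or Tumour library. That is at least 35.9-fold above Naive and at least 46.3-fold above Tumour (edgeR adjusted p = 0.000662 and 0.0107).

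Other MP members were missing from at least 1 MP library. An ALE loop with the TRAJ32 end SSGNKLI, ALELS in its first residues, had 68, 0, 178, 206 and 113 reads, at least 34.5-fold above Naive (edgeR adjusted p = 0.0102). A second ALE loop with that end, ALEPS, had 31, 0, 0, 105 and 24 reads, at least 10.1-fold above Naive (edgeR adjusted p = 0.0318), and this call was lost on leaving out any 1 Naive library (highest adjusted p = 0.0553). An AAR loop ending in TGSNRLT (TRAJ28) had 95, 0, 119, 87 and 65 reads in MP, 2 in Naive 1 and 26 in Tumour 4 (a pooled share 158 times that in Naive, exact 95% counting interval 43.4 to 1309, edgeR adjusted p = 0.00630).

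An ALG loop ending in SSFSKLV (TRAJ50) had 32, 0, 31, 20 and 24 reads (edgeR adjusted p = 0.0105), and an ALR loop ending in SALGRLH (TRAJ18) had 12, 16, 81, 0 and 7 (edgeR adjusted p = 0.0169). Neither was listed in Naive libraries. The eighth by rank, an AVS loop ending in EGADRLT (TRAJ45), had 7, 62, 0, 0 and 15 reads and did not pass the count filter for a test.

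That filter asked for at least 10 reads in at least 3 libraries. For MP against Naive 41 members passed it, of which 7 were called higher and 31 lower by edgeR at an adjusted p under 0.05. Over all 5954 CDR3s tested, 12.6% were called higher and 48.1% lower. Of the 31, 27 were listed in no MP library and passed through Naive alone. All 7 passed through MP alone: 5 were listed in no Naive library, and the AAE and AAR loops had few reads there. These counts therefore support no statement on long loops as a class. The 31 held 12 TRAJ52 and 8 TRAJ53 loops, and 21 started with AAS. The 7 held 2 each of TRAJ50 and TRAJ32 and 1 each of TRAJ39, TRAJ28 and TRAJ18. The median log2 fold change was -6.97 over the 41 members and -3.35 over all CDR3s tested. Without MP 1 and MP 5, 2 members were called higher and 33 lower of 36 tested.

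For Tumour against MP, 7 members were tested, 0 were called higher and 5 lower by edgeR (5 at an unadjusted p under 0.05, and 0 higher with DESeq2), where 7.68% of 1666 CDR3s were called higher and 66.0% lower. The number lower was 1 of 3 tested without MP 1 and MP 5 and 3 of 5 tested without MP 1 alone. For Tumour against Naive, 34 members were tested, all 34 were called lower and 0 higher by edgeR (34 at an unadjusted p under 0.05, and 0 higher with DESeq2), where 3.38% of 4671 CDR3s were called higher and 86.7% lower. None of the 34 was listed in a tumour. Without Naive 1, 22 members passed the filter and all 22 were called lower. The comparisons share libraries, so their counts are not independent of each other.

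Tumour long loops were large in 1 mouse at a time. None was listed in 3 or more tumours, so the most abundant member of each tumour is given, chosen after its values were seen. In Tumour 1 an ALS loop of 15 residues ending in GLSGKLT (TRAJ2) had 22707 reads, 84.1% of the long-loop reads and 3.04% of all reads of that library, and 5 reads in MP 1. In Tumour 5 an ALS loop ending in NAGAKLT (TRAJ39) had 4018 reads and was listed in no other library. In Tumour 3 an AVS loop ending in SSGNKLI (TRAJ32) had 2853 reads, and also 5, 4 and 6 reads in Naive 3 to 5 and 4 in MP 5.

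Tumour 4 was led by an AVS loop of 17 residues ending in EGADRLT (TRAJ45, 1020 reads) and Tumour 2 by an ALG loop ending in TNAYKVI (TRAJ30, 426 reads). Neither was listed elsewhere. The leading member took 14.4 to 84.1% of the long-loop reads of a tumour, 10.8 to 36.2% of those of an MP library and 2.47 to 5.47% of those of a Naive library. With the leading member of each library left out, the remaining long loops held 0.685 ± 0.0381% of Naive, 0.331 ± 0.0384% of MP and 0.414 ± 0.153% of Tumour reads, and Tumour was then below Naive by 0.266 points (exact permutation, adjusted p = 0.0119). In Tumour 1, 12 of the 39 members lay 1 substitution from the leading loop, each with at most 88 reads.

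**Figure D3:**
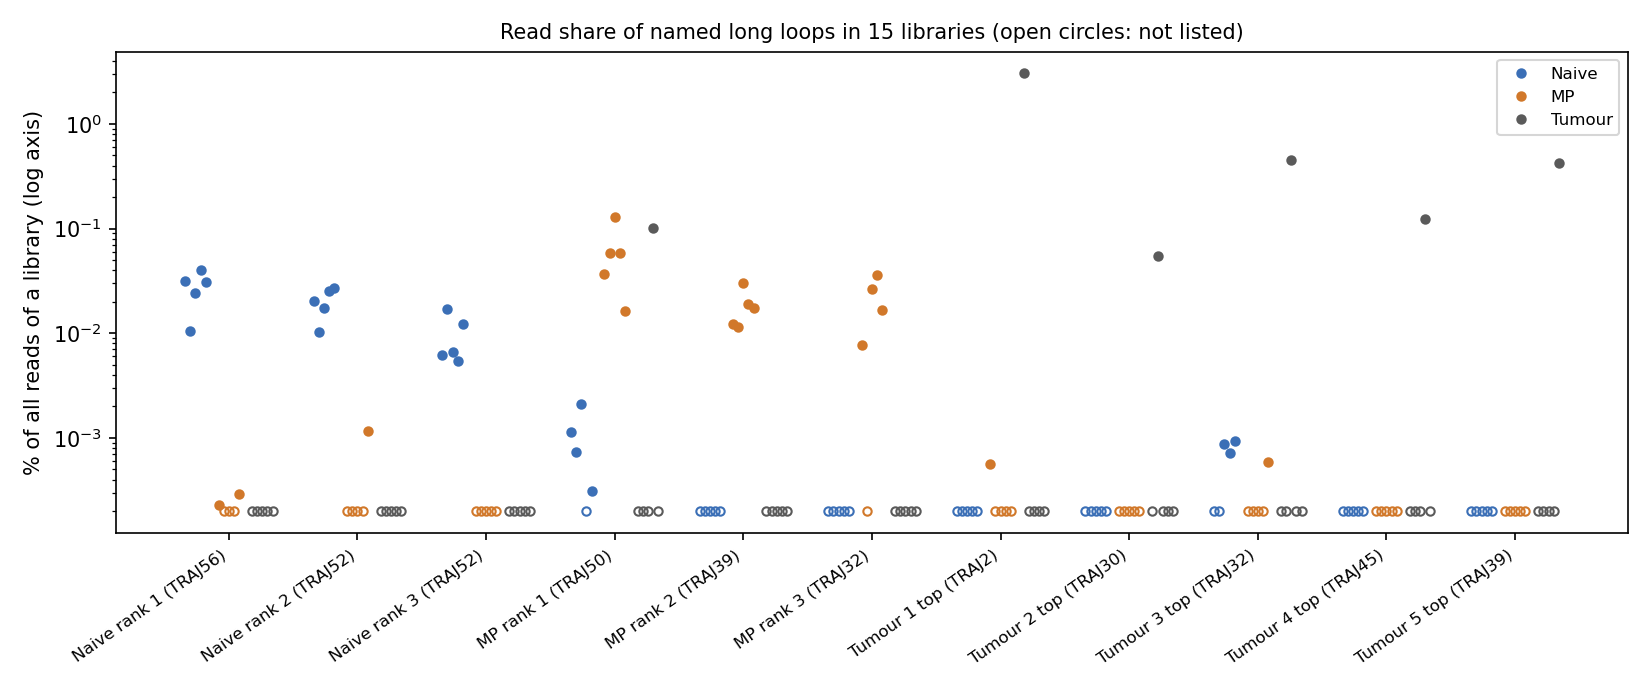
Each column is a member: the 3 of the highest mean share in Naive and in MP, and the most abundant of each tumour, named by rank and joining segment. Points give its percent of all reads in each library on a log axis and open circles a library that does not list it; the tumour members stand in 1 tumour each, the highest at 3.04% of reads.

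2 single MP libraries also had a large loop of their own, again chosen after values were seen. MP 5 held 1327 reads of a 16-residue AMV loop ending in SGSWQLI (TRAJ22), 36.2% of its long-loop reads, and MP 4 held 344 reads of a 16-residue loop that starts with VKP and ends with GSNYKLT (TRAJ53). Neither was listed in any other library.

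By reads, a few joining ends of members differed between Naive and MP. TRAJ52 ends took 23.4, 20.6, 23.9, 20.2 and 27.8% of long-loop reads in Naive libraries 1 to 5 and 6.71, 0, 0, 4.91 and 6.95% in MP libraries 1 to 5. The MP mean was lower by 19.5 points. TRAJ50 ends took 2.02 to 2.95% in Naive and 5.07 to 32.8% in MP, a mean higher by 13.98 points. TRAJ39 ends took 0.789 to 1.43% in Naive and 12.7, 7.96, 22.1, 4.29 and 6.16% in MP, higher by 9.62 points. None of these groups overlapped.

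Of 33 segments tested, 2 (TRAJ50 and TRAJ39) were higher and 4 lower in MP than in Naive, the others being TRAJ57 by 4.27, TRAJ58 by 2.94 and TRAJ40 by 0.869 points (exact permutation, adjusted p = 0.0437 each). No call remained on leaving out any 1 library, where the smallest exact permutation p that 4 against 5 libraries allow is 0.0159 before adjustment. With CDR3s of fewer than 10 reads left out none was called either, though TRAJ52 then lay 29.4 points lower and TRAJ50 15.9 points higher (exact permutation, adjusted p = 0.0655). Counted once per member no segment was called: TRAJ50 was 4.08 points higher (exact permutation, adjusted p = 0.262), TRAJ40 lay -0.408 points from Naive (adjusted p = 0.649), and TRAJ52 (-13.97 points) and TRAJ39 (5.58 points) had an adjusted p of 0.0655. The TRAJ50 difference fell to 3.83 points without the leading member of each library (exact permutation, adjusted p = 0.442), and TRAJ39 was then 12.98 points higher (adjusted p = 0.0327).

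**Figure D4:**
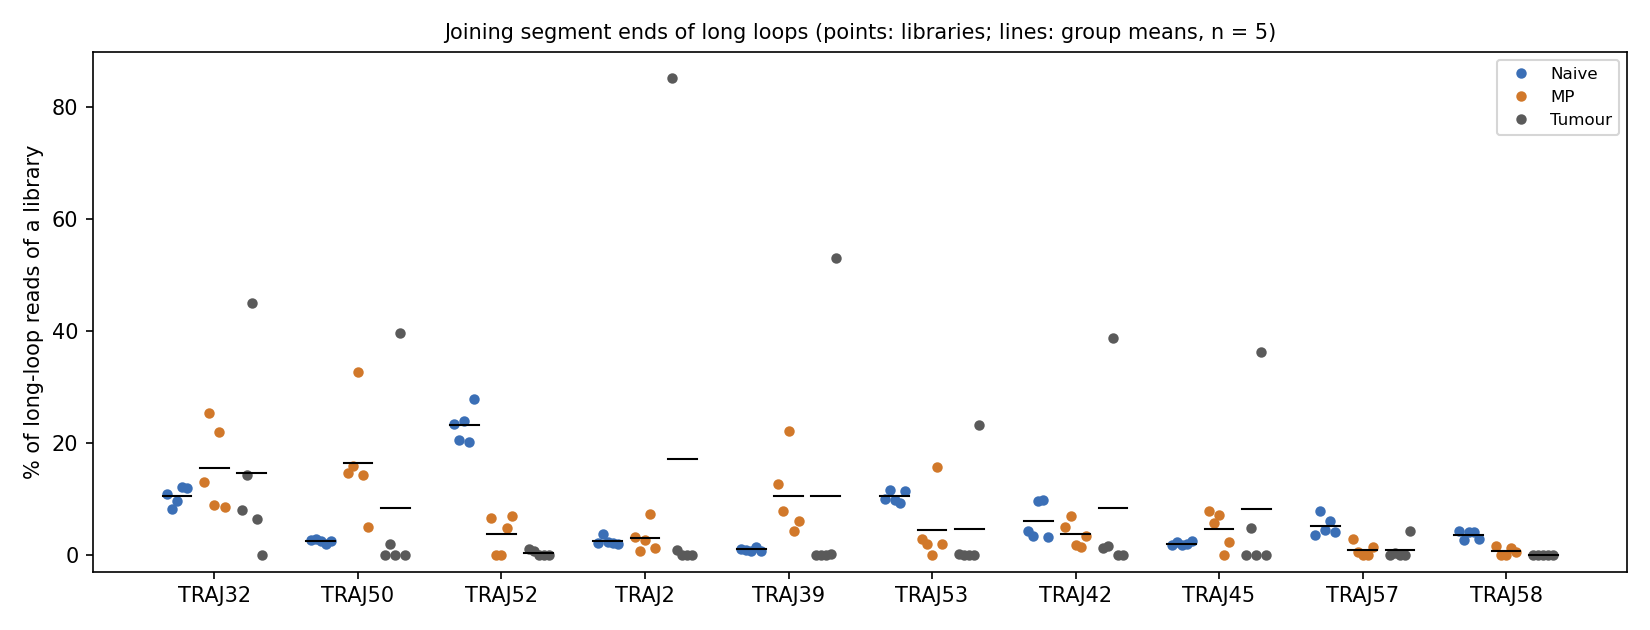
Points give the percent of a library's long-loop reads with each TRAJ end, coloured by group, and lines the group means. TRAJ52 is high in the 5 Naive libraries (20.2 to 27.8%), TRAJ50 and TRAJ39 are higher in MP than in Naive libraries, and high tumour points stand alone, such as TRAJ2 at 85.3% in Tumour 1.

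In tumours no segment was higher than in Naive and 7 were lower: TRAJ52, TRAJ37, TRAJ58, TRAJ27, TRAJ24, TRAJ26 and TRAJ35 (exact permutation, adjusted p = 0.0374 each). TRAJ52 took 1.05 and 0.675% of long-loop reads in Tumour 1 and Tumour 2 and none in the other 3, and TRAJ58 took none in any tumour. These calls were lost on leaving out any 1 library other than Tumour 2, without which 14 segments were called lower, and with CDR3s of fewer than 10 reads left out. No segment was called between Tumour and MP. Some high tumour values were those of the leading loop, as with TRAJ2 at 85.3% in Tumour 1, TRAJ39 at 53.0% in Tumour 5 and TRAJ32 at 45.0% in Tumour 3. Others were not the leading loop's segment: TRAJ50 at 39.7% in Tumour 4, TRAJ42 at 38.8% in Tumour 3 and TRAJ53 at 23.2% in Tumour 5. Single loops weighed much here too. An ILR loop ending in GSNAKLT (TRAJ42) had 2447 of the 6404 long-loop reads of Tumour 3. The leading MP member (TRAJ50) had 837 of the 2853 long-loop reads of Tumour 4.

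As a check for other T cell types, the ends of TRAJ18 and TRAJ33 were counted, since these are the segments in the alpha chains of invariant natural killer T cells and of mucosal-associated invariant T cells. Those chains have loops shorter than 15 residues. Among members 92 had the TRAJ18 end and 2 the TRAJ33 end.

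Starts of members were compared in the same way. Loops that start with AA held 50.7 ± 2.28% of the long-loop reads of Naive libraries, 26.2 ± 8.42% for MP and 17.04 ± 16.8% for Tumour. AL starts took 19.9 ± 1.13%, 32.1 ± 13.6% and 44.9 ± 37.5%. AA starts differed by -24.5 points between MP and Naive by reads, with no overlap between the groups, but no start passed the test there. For AA the exact permutation p was 0.00794, the smallest that 5 against 5 libraries allow, and 0.0873 when adjusted over 11 starts. AA, AI and AT starts were lower in Tumour than in Naive (exact permutation, adjusted p = 0.0291 each). The AA call was lost without the leading member of each library (-22.5 points, adjusted p = 0.262) and the AI call with CDR3s of fewer than 10 reads left out (-0.922 points, adjusted p = 0.633). No start was called on leaving out any 1 library other than Tumour 1 or Tumour 4, without either of which 4 were called lower. Counted by distinct member, AA starts were lower in MP than in Naive (a difference of -32.2 points, exact permutation, adjusted p = 0.0291). AL starts were 18.2 points and AM starts 4.88 points higher in MP (exact permutation, adjusted p = 0.0291 each).

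Long loops held more glycine than shorter ones. Glycine made up 15.9 ± 0.273% of the residues of Naive long loops weighted by reads, 12.6 ± 1.53% for MP and 15.2 ± 6.06% for Tumour, against 9.08, 9.41 and 9.21% in shorter loops, and the value was higher in long loops in 15 of 15 libraries (exact sign-flip permutation, p = 6.1e-05). Of the J ends shown above, TGANTGKLT and SGGSNYKLT hold glycine, while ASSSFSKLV holds none. The part of the J ends in the glycine content was not tested. MP was below Naive by 3.32 points (exact permutation, adjusted p = 0.0198 over 5 properties), and by 1.18 points when each member was counted once (adjusted p = 0.0397).

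Loops with proline took 30.3 ± 0.806% of long-loop reads in Naive and 48.5 ± 12.5% in MP (exact permutation, adjusted p = 0.0198). Counted once per member the difference was 3.25 points (exact permutation, adjusted p = 0.661), and without the leading member of each library it was 6.58 points (adjusted p = 0.585). Net charge was 0.797 ± 0.0213 in Naive and 0.594 ± 0.250 in MP and did not pass the test (exact permutation, adjusted p = 0.198). Cysteine, rare in CDR3s, was held by 0.362 ± 0.274% of long-loop reads in Naive and 0.0135 ± 0.0302% in Tumour (exact permutation, adjusted p = 0.0397). This difference was 0 with CDR3s of fewer than 10 reads left out. The members of extreme length described at the end share an end that holds a cysteine. They took 0 to 0.266% of long-loop reads in a Naive library and none in tumours, and their part in the difference was not tested.

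The longest members often held letters of a delta chain segment. Mouse TRDD2, a diversity segment of the delta chain, reads in its 3 frames as IGGIR, as SEGY or as RRD, and the motifs searched below, which include a neighbouring residue, were chosen after peptides had been seen.

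TRDD2, the first frame: IGGIR

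TRDD2, the second frame: ISEGY

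TRDD2, the third frame: YRRD

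At least 1 of these 3 motifs stood in 116 of 4058 members (2.86%) and in 2 of 88161 shorter loops. It stood in 2 of 3060 loops of 15 residues, 4 of 580 of 16 residues, 67 of 318 of 17 to 19 (21.1%) and 43 of 100 of 20 or more (43.0%). IGGIR was in 49 members, YRRD in 40 and ISEGY in 27. Among loops of 13 to 14 residues it stood in 2 of 26604. ILR, a start given by a V segment, opened 11 of the 116 (9.48%), 78 of 3942 other members (1.98%) and 0.635% of shorter loops. Of the 11, 3 lay 1 substitution from a far more abundant loop of their tumour, as given next.

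**Figure D5:**
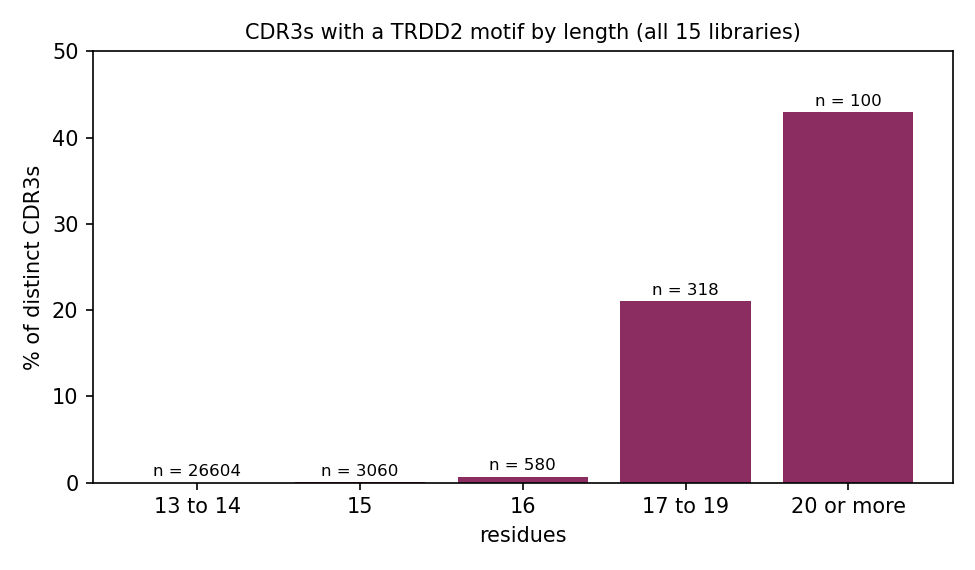
Bars give the percent of distinct CDR3s of each length class that hold IGGIR, ISEGY or YRRD, over all 15 libraries, with the number of CDR3s above each bar. The percent is near 0 up to 16 residues and 43.0% at 20 residues or more.

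Members with at least 1 of these 3 motifs were found in all 5 Naive, 3 MP and 4 Tumour libraries. Tumour 5 held none, but an AMR loop of 20 residues ending in GGSAKLI, with 315 reads there, holds SEGY without the I searched for. Members with a motif were 1.39 to 3.17% of distinct members in Naive, 0 to 2.70% in MP and 0 to 30.0% in Tumour libraries. The means were 2.27 ± 0.651%, 0.990 ± 1.15% and 11.1 ± 11.9%. Tumour was higher than MP by 10.1 points (exact permutation p = 0.0476, adjusted p = 0.0873) and than Naive by 8.85 points (exact permutation, adjusted p = 0.0873), so that no pair passed. A tumour library lists 20 to 64 members, so each such loop weighs much there. The most abundant was an ILR loop of 18 residues ending in GSNAKLT, with 2447 reads in Tumour 3 (IGGIR). With loops 1 substitution from a CDR3 of 100 times their reads folded into it, an alternative chosen after seeing the data, Tumour 3 kept 1 of its 6 loops with a motif, among 5 members in all. The means were then 2.27 ± 0.652% in Naive, 1.02 ± 1.21% in MP and 12.03 ± 10.7% in Tumour, and again no pair passed (exact permutation, adjusted p = 0.0873 each). The loop shared by Tumour 1 and Tumour 4 holds YRRD. No Naive library had more than 11 reads of any. The longest MP member of at least 10 reads in a library, an AAS loop of 22 residues ending in ANTGKLT with 21 reads in MP 5, holds YRRD as well. The longest such Naive member, an AVK loop of 23 residues ending in GNTGKLI with 11 reads in Naive 2, holds none of the 3 whole. It holds IGGI, which is IGGIR without the R.

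The extreme lengths had another make-up. All 15 members of 32 or more residues ended in the same 12 residues, the first 3 of which stand before the commonest TRAJ17 end, and no other CDR3 had that end. It is shown here with a few of the loops found inside these members.

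Shared end: HCVTNSAGNKLT

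Inside a 38-residue member of MP 5: ATALDPYVGSWQLI

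Inside a 37-residue member of MP 5: AASRTTASLGKLQ

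Inside a 37-residue member of Naive 4: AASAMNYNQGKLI

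In 14 of the 15 a complete joining end of another segment, followed by the FG or WG with which a J segment continues beyond the loop, stood before the shared end, and the remaining member held F or W, then G, any residue and G. 8 segments were found inside, and all 8 lie before TRAJ17 in the order of TRAJ genes in the RefSeq table of assembly GRCm38.p6, where 60 TRAJ segments run in falling number. In 12 of these 14 the inner part was itself listed as a CDR3 of the same library: ATALDPYVGSWQLI with 603 reads in MP 5, AASRTTASLGKLQ with 6108 in MP 5 and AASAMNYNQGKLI with 2357 in Naive 4. These 15 members had 2 to 8 reads each, 48 in all, lay in Naive 1, 3, 4 and 5 and in MP 5, and were each listed in 1 library. None was listed in a tumour.

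The longest tumour member of at least 10 reads was an ALS loop of 31 residues ending in LGGAKLT, with 262 reads in Tumour 2, which matched no segment end. The other 5 members of 31 residues lay 1 substitution from it, had 2 to 4 reads and came from the same library.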

How the data were processed

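TCR alpha CDR3s were sequenced by iRepertoire from Trizol RNA of sorted cells with arm-PCR, a multiplex RT-PCR, per the labels' protocols. For alignment, CDR3 calling, error filters and molecular identifiers, nothing is stated in the labels. The values are deposited counts of reads per peptide, 1 list per library, used without change. The lowest was 2. PCR reads are not independent molecules, so floors cover counting error only. Nothing says which Naive and MP libraries share a mouse, and p-values measure the spread between these libraries.

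Shares per library were compared by exact two-sided permutation tests (252 splits), and long with shorter loops by sign-flips over libraries, in python 3.11.15 with scipy 1.17.1. P-values were adjusted by Benjamini-Hochberg over 3 comparisons, or over properties, segments or starts within a comparison. Reads per CDR3 were tested with edgeR 4.0.16 (quasi-likelihood, total reads as library size, at least 10 reads in at least 3 libraries) on the whole table, adjusted over all CDR3s, and with DESeq2 1.42.0. Scripts were tested on simulated data. Where no library of a group listed a member, the fold is a bound against 3 reads per library.

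Named members were the 8 of the highest mean share per group among those in at least 3 libraries, the 3 largest called changes each way and the longest per group with at least 10 reads. The members, lists and segment ends were chosen with earlier results of these data known. Whole sequences of members are not printed here.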

Additional observations from a re-analysis of the deposited data

Results flagged for a closer look

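In a group of 5 libraries, 1 library lay far from the other 4 in 11 of 45 groups of values tested. Chance does this in about 1 in 20 groups, and shares of long-loop reads are not independent of each other. Tumour 1 had the highest read share of long loops at 3.62%, where the next tumour had 1.02%. Naive 2 held 431 distinct long loops at a common depth, where the next lowest Naive library held 836, and its long loops held the most glycine, 16.4% of residues against at most 15.9% in the others.

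The rest were shares of long-loop reads with 1 joining end. Tumour 4 had 39.7% with TRAJ50, where the next tumour had 1.99%, and 36.3% with TRAJ45, where the next had 4.76%. Tumour 1 had 85.3% with TRAJ2 against at most 0.878%, Tumour 5 had 53.0% with TRAJ39 against at most 0.140% and 23.2% with TRAJ53 against at most 0.185%, and Tumour 3 had 38.8% with TRAJ42 against at most 1.65%. Naive 2 had 3.77% with TRAJ2, where the next Naive library had 2.38%, and MP 4 had 15.8% with TRAJ53, where the next MP library had 2.92%.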

How the results depend on the processing

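With CDR3s of fewer than 10 reads left out, the share of reads in long loops was 0.0659 points higher in MP than in Naive, and the share of distinct CDR3s was 0.137 points higher in MP than in Naive, 0.582 higher in Tumour than in MP (exact permutation, adjusted p = 0.0833) and 0.719 higher in Tumour than in Naive. The number at a common depth then differed by -37.8 between MP and Naive (exact permutation p = 0.103 after adjustment) and reuse by -29.3 points (adjusted p = 0.0238). At 14 residues or more the Tumour read share was 1.51 points below Naive (difference -1.51), the Tumour share of distinct CDR3s differed from MP by -0.871 and the number at a common depth by -465. At 16 residues or more, the MP read share differed from Naive by -0.0182 and the Tumour share of distinct CDR3s from Naive by 0.302. Leaving out the leading member of each library gave a Tumour read share of -0.266 against Naive, and turned TRAJ39 (-0.874) and AV starts (-11.6) in Tumour against Naive and AM starts in Tumour against MP (12.8) and Naive (10.6). AM starts by distinct member were 15.7 points higher in Tumour than in Naive. The causes were not tested.

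Without MP 1 and MP 5, chosen after seeing the data, MP differed from Naive by -0.295 points in read share, by -756 in number and by -11.6 points in reuse. The number then had an adjusted exact permutation p of 0.0536. Its unadjusted p of 0.0357 was the smallest that the libraries left allow, so the lost call does not show a weaker difference. Reuse in MP against Naive ranged from -11.0 to -2.60 points without 1 library. Same-numbered Naive and MP libraries did not deviate together (correlations 0.0125 to 0.0471), which met no bar for pairing, and whether they come from the same mice was not settled. With that number as a replicate block (paired sign-flip of 5, smallest p 0.0625), the differences were the same in size and none could pass: -0.287 points in read share, -1.59, 0.810 and -0.778 in the share of distinct CDR3s.

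For edgeR calls of MP against Naive, a filter of at least 50 reads left 4 members higher and 2 lower of 6 tested. With no filter 29 were higher and 283 lower of 440 members, and 2289 and 14848 of all 28731 CDR3s. Leaving out MP 1 and MP 5 gave 2 higher of 36 tested. For Tumour against MP, at least 50 reads left 2 lower of 4 tested. With no filter 3 members were higher and 32 lower of 47, and 521 and 4670 of all 6978 CDR3s. The replicate block gave 1 lower of 7 tested and leaving out MP 1 and MP 5 gave 1 of 3. Without 1 library 3 to 7 were lower, of 5 to 7 tested. For Tumour against Naive, at least 50 reads left 2 lower of 2 tested. With no filter 368 of 377 members were lower, and 21912 of all 24277 CDR3s. Leaving out 1 library gave 22 to 34 lower, each time all members tested. TMM and DESeq2 kept each of these counts within 1.5 times. Depth limits what is said of unlisted CDR3s, since a list starts at 2 reads.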
